A study of Saccharomyces cerevisiae with 180 samples.

Results

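The nucleosomes nearest to the chromosome ends of budding yeast are described here. A nucleosome was taken when it lay within 20 kb of the first start or the last end that the nucleosome atlas lists for its nuclear chromosome, a choice that uses position alone. This gave 3497 of the 66360 atlas nucleosomes, and 3435 of these were among the 65032 with read counts (5.28%). They belong to the 32 ends of 16 chromosomes, and no end held fewer than 97 of them. Of the 3435, 1793 lay in 1 protein-coding gene, 1622 in none and 20 in 2 or more genes. Genes therefore covered 52.2% of the subtelomeric nucleosomes, against 80.9% of the other 61597, so genic and intergenic nucleosomes were also compared separately.

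The study used combinatorial indexed immunoprecipitation: mononucleosomes released by micrococcal nuclease were bound to a first antibody, and the bound material was then offered to a second antibody or kept as Input, read here as material without a second antibody. The first set held 4 strains, 3 with an H3 lysine changed to arginine (H3K4R, H3K18R, H3K36R) and WT H3, with first antibodies against K4me3, K36me3, K79me3, K18ac or H3 itself and 6 choices of second step. The second set held the strains labelled eaf3, set2 and bar1, with 4 first antibodies (no H3) and 5 choices of second step, and the titles call bar1 its wild type. All cells were grown in rich YPD medium and fixed with formaldehyde. EAF3 encodes a chromodomain subunit of the NuA4 acetyltransferase and the Rpd3S deacetylase, SET2 the lysine 36 methyltransferase, and BAR1 a secreted protease that degrades alpha factor.

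There were 180 libraries, 1 for every combination of strain and antibodies, so no value has a replicate library. Each SD below is over strains unless it is said to be over ends or over combinations of antibodies. Depth ran from 150 to 2693698 reads with a median of 110476.5, and 32 libraries held fewer than 10000. In CPM, reads scaled to a common library total, the SET2 gene had 7.10 in set2, 257 in eaf3 and 215 in bar1, and EAF3 had 5.58 in eaf3, 93.4 in set2 and 98.5 in bar1, summed over the 4 marks with Input. BAR1 was not reduced in the strain labelled bar1: it had 140 CPM there, 111 in eaf3, 146 in set2 and 158 in WT H3. The strain is therefore called by its label throughout. Strains that lack a marked residue or its enzyme gave few reads with that antibody: 3639 for K4me3 in H3K4R, 37544 for K18ac in H3K18R and 24149 for K36me3 in set2, but 434317 for K36me3 in H3K36R. These libraries were left out of the means.

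In budding yeast the Sir proteins spread from the telomeres over nearby nucleosomes, where they bind histone tails that lack acetyl groups and H3 that is not methylated at lysine 79. Set1 trimethylates lysine 4 near the start of transcribed genes, Set2 methylates lysine 36 along their bodies, and Dot1 methylates lysine 79. Acetylation of lysine 18 is laid down by Gcn5-containing complexes at active promoters. Subtelomeres hold gene families that are repeated from end to end, and many ends carry a Y' element, whose helicase is encoded by the YRF1 genes.

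All 4 marks were lower on subtelomeric nucleosomes than on the rest of the genome, and H3 was slightly higher. The level used here is the log2 of reads per nucleosome within 20 kb over reads per nucleosome outside 20 kb in the same library, so 0 means equal coverage and -1 means 2-fold less. It compares regions within a library and does not measure absolute amounts. In a culture of many cells, a mark lost from part of the cells and a mark reduced in every cell cannot be told apart.

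Trimethyl lysine 4 was the lowest of the marks. With Input its level was -1.15 in H3K18R, -1.56 in H3K36R, -0.94 in eaf3, -0.83 in set2, -1.31 in WT H3 and -0.98 in the strain labelled bar1. All 6 strains were therefore well below 0, and the mean was -1.13 ± 0.27 (SD, n = 6), or 2.18-fold less than elsewhere. In WT H3, K4me3 gave no read at all on 21.6% of the subtelomeric nucleosomes and on 5.06% of the others.

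Trimethyl lysine 36 had levels of -0.77 in H3K4R, -0.71 in H3K18R, -1.13 in eaf3, -0.74 in WT H3 and -0.91 in bar1, a mean of -0.85 ± 0.17 (SD, n = 5). The 3 strains of the first set lay close together and the 2 of the second set lay below them. In the strains without the mark the same antibody gave -1.72 in H3K36R and -1.42 in set2, lower than in any strain that carries it. Outside 20 kb, eaf3 held 17.9 reads per genic and 8.30 per intergenic nucleosome, and bar1 6.08 and 2.88, against 45.7 and 11.9 in WT H3. In H3K36R, which lacks the mark, they were 7.63 and 3.77. Whether the difference between the sets reflects the mark alone was not tested.

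Trimethyl lysine 79 had levels of -0.85 in H3K4R, -0.73 in H3K18R, -0.96 in H3K36R, -0.45 in eaf3, -0.58 in set2, -0.76 in WT H3 and -0.60 in bar1, with a mean of -0.70 ± 0.17 (SD, n = 7). Every strain was below 0, and the first set lay below the second. The 2 highest levels, in eaf3 and set2, came from libraries with little or no excess of reads on genes. Outside 20 kb, eaf3 held 1.68 reads per genic and 1.73 per intergenic nucleosome, and set2 11.4 and 10.1, against 25.9 and 9.63 in WT H3. The difference between the sets may therefore not reflect the mark alone, which was not tested. The bar1 value rests on a library of 10044 reads, 356 of them subtelomeric.

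Acetyl lysine 18 was the least reduced mark. Its level was -0.39 in H3K4R, -0.67 in H3K36R, -0.31 in eaf3, -0.26 in set2, -0.48 in WT H3 and -0.02 in bar1, a mean of -0.36 ± 0.22 (SD, n = 6). The strain labelled bar1 was thus level with the rest of the genome. H3 itself had levels of 0.19 in H3K4R, 0.02 in H3K18R, 0.29 in H3K36R and 0.17 in WT H3 (mean 0.17 ± 0.11, SD, n = 4), none of them below 0.

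**Figure D1:**
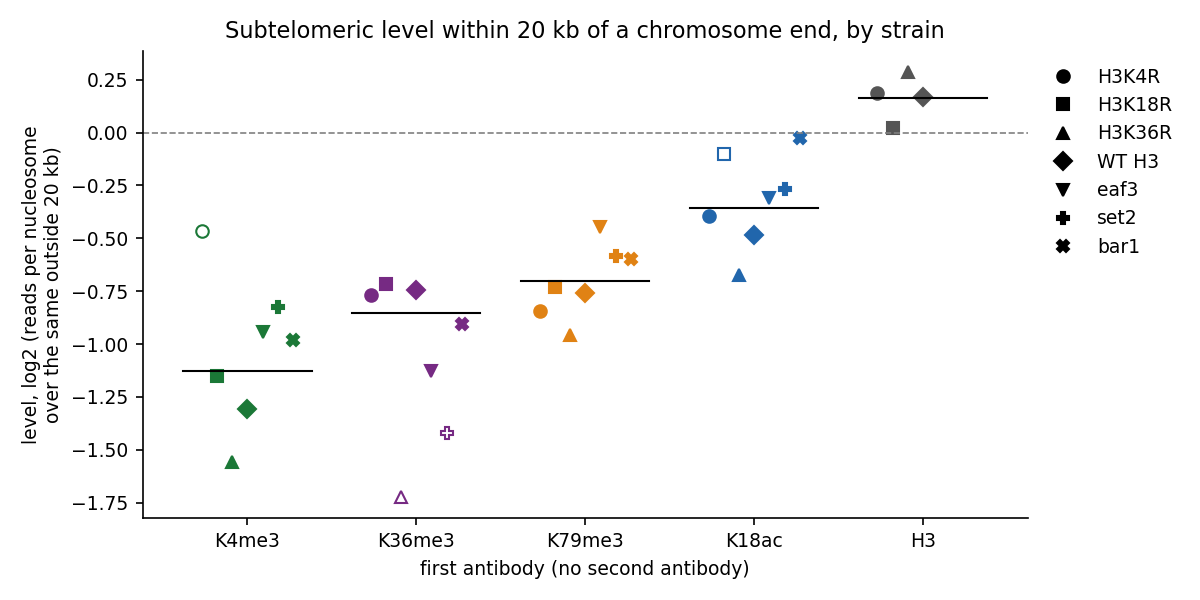
Subtelomeric level of each first antibody with Input, as log2 of reads per nucleosome within 20 kb over the same outside 20 kb. Each symbol is 1 strain (1 library), filled where the strain carries the mark and open where it does not, and the black line is the mean over the strains that carry it: -1.13 for K4me3, -0.85 for K36me3, -0.70 for K79me3, -0.36 for K18ac and 0.17 for H3.

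These differences were tested over strains with two-sided exact permutation tests on the 10 pairs of antibodies, with Benjamini-Hochberg adjustment. Since strains share antibodies and a culture regime but are not replicates of 1 genotype, the p-values measure only the spread between these strains. K4me3 was below H3 by a difference of -1.29 (exact permutation test, adjusted p = 0.00952), K36me3 by -1.02 (exact, adjusted p = 0.0119), K79me3 by -0.87 (exact, adjusted p = 0.00952) and K18ac by -0.52 (exact, adjusted p = 0.0119). No strain overlapped with H3 in these 4 comparisons. These tests treat the libraries of a strain as independent, and H3 was measured in the first set alone. Within the first set the 4 differences were -1.503, -0.91, -0.99 and -0.68 in the same order (exact, adjusted p = 0.0476 in each). With the 3 or 4 strains that have both antibodies taken as pairs, they were -1.496, -0.87, -0.99 and -0.73, and an exact sign-flip test of so few pairs cannot reach 0.05.

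Among the marks, K18ac was above K4me3 by 0.77 (exact permutation test, adjusted p = 0.00952). K36me3 was below K18ac by a difference of -0.49 (exact, adjusted p = 0.00952), and K79me3 was below it by -0.35 (exact, adjusted p = 0.0119). K79me3 was above K4me3 by 0.42 (exact, adjusted p = 0.00952). K36me3 minus K4me3 was 0.27 (exact, adjusted p = 0.0818) and K79me3 minus K36me3 was 0.15 (exact, adjusted p = 0.170), and neither passed the threshold of 0.05. With strains as pairs none of these 6 comparisons passed (4 to 6 strains each, exact sign-flip tests, lowest adjusted p = 0.156). The size of K36me3 minus K18ac depended on the library set, at -0.23 in the first and -0.82 in the second, and neither set alone passed. Relative to H3 of the same strain it was -0.14. The order of K36me3 and K4me3 also differed between the library sets, with K36me3 minus K4me3 at 0.60 in the first set and -0.10 in the second. It was 0.38 without eaf3 (exact, adjusted p = 0.0441) and 0.34 without set2 (exact, adjusted p = 0.0353).

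The loss of the marks was graded with distance but not in the same way for each. From the end inwards, the mean level of K4me3 was -1.15, -1.32, -1.18 and -0.89 in the 4 steps of 5 kb, and -0.50 in the next step, 20 to 25 kb from the end. K4me3 was thus low over the whole 20 kb. Over all nucleosomes the SD of these means over 6 strains lay between 0.19 and 0.32 within 20 kb.

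K36me3 changed most between steps: its mean level was -0.24, -1.60, -1.10 and -0.83, and then -0.68 at 20 to 25 kb. The second step was the low point, with strains from -1.72 to -1.53 (SD 0.07, n = 5). In the first 5 kb the 3 first-set strains had levels of 0.01 in H3K4R, 0.06 in H3K18R and 0.06 in WT H3, whereas eaf3 had -0.80 and bar1 had -0.53. The sets did not overlap there, so the set and the step value cannot be told apart from these libraries.

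K79me3 had the same shape, with mean levels of -0.40, -1.20, -0.77 and -0.60, and then -0.48. The mean level of K18ac was -0.31, -0.57, -0.35 and -0.23, and then -0.22. H3 had 0.43, 0.15, 0.06 and 0.00, and then 0.01, so the extra H3 reads lay mainly in the outermost 5 kb. Just outside the 20 kb limit no mark had returned to 0. By 35 to 40 kb the mean levels were -0.13 for K4me3, -0.10 for K36me3, -0.05 for K79me3, -0.13 for K18ac and 0.01 for H3.

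**Figure D2:**
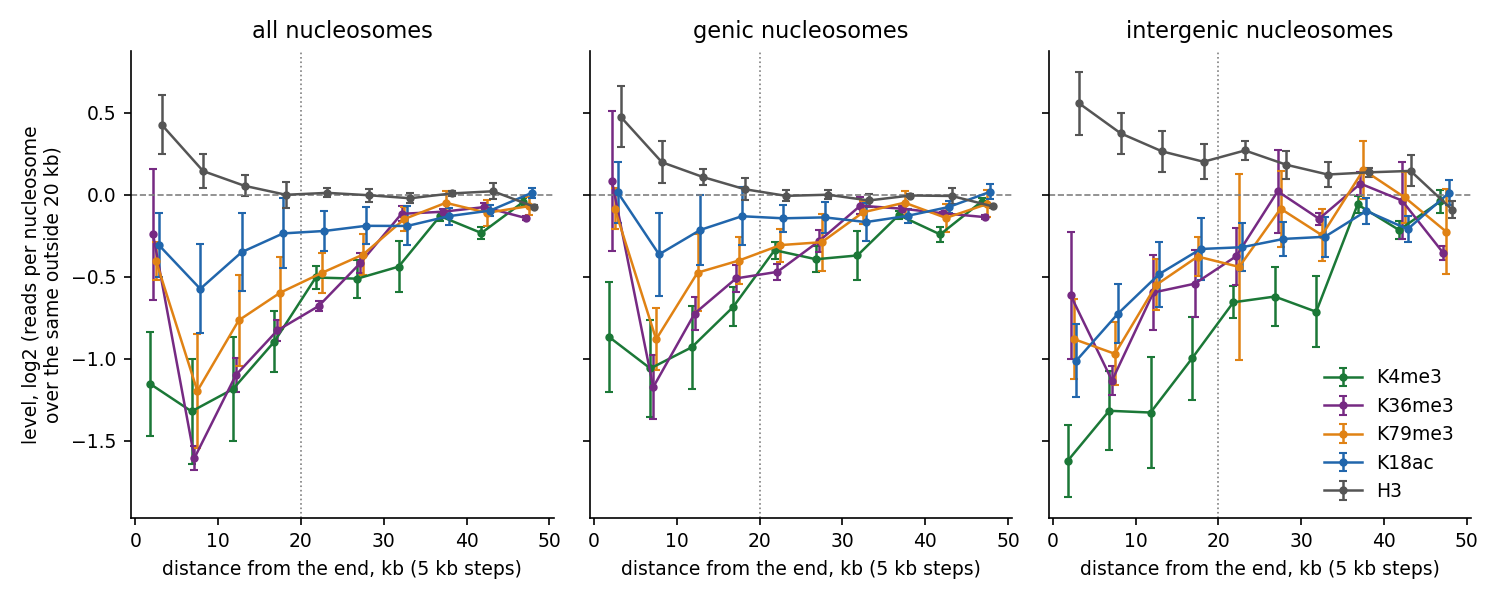
Mean level of each first antibody with Input against the distance from the chromosome end in 5 kb steps to 50 kb, for all, genic and intergenic nucleosomes, each relative to the same kind outside 20 kb. Points are means and bars SDs over the strains that carry the mark (n = 6, 5, 7, 6 and 4 for K4me3, K36me3, K79me3, K18ac and H3), offset sideways to keep bars apart, and the dotted line marks 20 kb. K36me3 and K79me3 reach their low points of -1.60 and -1.20 in the second step.

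The 6 pairs of marks were tested in each of the 4 steps, again with libraries of a strain taken as independent, 24 tests in all, and 15 passed after adjustment. K18ac was above K4me3 in every step, by 0.85, 0.75, 0.84 and 0.66 from the end inwards (exact permutation tests, adjusted p = 0.00577 in each). In the first 5 kb K36me3 and K79me3 were also above K4me3, by 0.91 and 0.75 (exact, adjusted p = 0.00577 for both). In the second step neither comparison passed: K36me3 minus K4me3 was -0.28 (exact, adjusted p = 0.113) and K79me3 minus K4me3 was 0.12 (exact, adjusted p = 0.572).

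K36me3 was below K18ac in the 3 inner steps, by differences of -1.03, -0.75 and -0.59 (exact permutation tests, adjusted p = 0.00577 in each). K79me3 was below K18ac there too, by -0.62 (exact, adjusted p = 0.0210), -0.42 (exact, adjusted p = 0.0373) and -0.36 (exact, adjusted p = 0.0356). In the first 5 kb these 2 pairs did not differ detectably, at 0.07 (exact, adjusted p = 0.723) and -0.09 (exact, adjusted p = 0.389). With any 1 of H3K4R, WT H3 or bar1 left out, 9 of the 24 tests passed, and with the first set alone none did.

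Genic nucleosomes of the subtelomeres were compared with genic nucleosomes elsewhere, and intergenic with intergenic. The mean genic level was -0.86 for K4me3, -0.45 for K36me3, -0.40 for K79me3, -0.15 for K18ac and 0.23 for H3. The intergenic levels were lower for each mark, at -1.29 for K4me3, -0.71 for K36me3, -0.67 for K79me3 and -0.60 for K18ac, while H3 had 0.35. Every strain that carries a mark showed this direction.

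The genic minus intergenic difference was 0.43 ± 0.08 for K4me3 (SD over 6 strains, two-sided exact sign-flip permutation test, adjusted p = 0.0417) and 0.45 ± 0.06 for K18ac (6 strains, exact, adjusted p = 0.0417). It was 0.27 ± 0.11 for K79me3 (7 strains, exact, adjusted p = 0.0417) and 0.26 ± 0.04 for K36me3 (5 strains, too few for an exact test of this kind to reach 0.05). Much of the difference lay in the outermost step. With the first 5 kb left out it was 0.35 for K4me3, 0.29 for K18ac, 0.07 for K79me3 and -0.01 for K36me3, and none of the 4 passed. The 3 calls were also lost whenever any 1 strain was left out, although the differences then stayed between 0.24 and 0.47.

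In the first 5 kb, genic nucleosomes pooled over all ends were close to the genic level elsewhere for 3 of the marks: the mean level was 0.09 ± 0.43 for K36me3, -0.08 ± 0.12 for K79me3 and 0.02 ± 0.19 for K18ac (SD over strains), against -0.87 ± 0.33 for K4me3. Intergenic nucleosomes of the same step were low for every mark, at -0.61 for K36me3, -0.88 for K79me3, -1.01 for K18ac and -1.62 for K4me3. However, 171 of the 510 genic nucleosomes lay at the 7 ends that hold an annotated YRF1 gene, and all 325 intergenic ones at the other 25 ends. At those 25 ends the genic level was -0.16 ± 0.43 for K36me3, -0.36 ± 0.19 for K79me3, -0.22 ± 0.23 for K18ac and -1.07 ± 0.35 for K4me3. These values were lower than the pooled ones but above the intergenic level for each mark. In the fourth step the kinds lay closer together: genic and intergenic levels were -0.51 and -0.54 for K36me3, -0.40 and -0.38 for K79me3, and -0.13 and -0.33 for K18ac.

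The chromosome ends differed from each other. Over the whole 20 kb, the mean level of K4me3 was below 0 at all 32 ends, from -2.25 at the left end of chromosome I to -0.22 at the left end of XIII. K79me3 was also below 0 at all 32, from -1.41 (XV left) to -0.01 (VIII right). K36me3 was below 0 at 30 ends and ran from -2.23 (IX right) to 0.30 (VIII right), the widest range of the 4 marks. K18ac was below 0 at 30 ends, from -1.10 (III left) to 0.01 (XII right).

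The SD between ends was 0.45 for K4me3, 0.60 for K36me3, 0.39 for K79me3 and 0.26 for K18ac, and the median SD over strains at an end was 0.31, 0.24, 0.35 and 0.23 in the same order. The spread between ends thus exceeded that between strains most for K36me3 and K4me3, and little for K79me3 and K18ac. Across the 32 ends, which share libraries and depth, K36me3 and K79me3 had a Pearson correlation of 0.87, K4me3 and K18ac one of 0.70, and K4me3 and K36me3 one of 0.54. The correlation of H3 was 0.59 with K36me3 and 0.13 with K18ac. These coefficients are given as a description.

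The outermost 5 kb split the ends most clearly. At the 7 ends that hold an annotated YRF1 gene, all 7 had K36me3 above 0, from 0.61 to 0.80, and K79me3 from 0.11 to 0.72. K18ac at these ends ran from 0.26 to 0.60 and H3 from 0.58 to 0.91, while K4me3 stayed below 0, from -0.88 to -0.20. The YRF1 ends were thus level with or above the rest of the genome for every antibody but K4me3.

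The other 25 ends ran from -3.71 to 0.41 for K36me3, with a median of -1.02. They fell in separate ranges, with 10 ends at -0.06 or above and 15 ends at -0.62 or below. Of these 25 ends, 9 were above 0 for K36me3, 5 for K79me3 and 5 for K18ac. Levels above 0 were thus not particular to the YRF1 ends. At the same 25 ends K79me3 ran from -3.74 to 0.28 (median -0.99), K18ac from -2.37 to 0.23 (median -0.79) and K4me3 from -3.87 to -0.52 (median -1.65). H3 was above 0 at all 25, with a median of 0.31. The lowest end for all 4 marks was the left end of chromosome III.

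**Figure D3:**
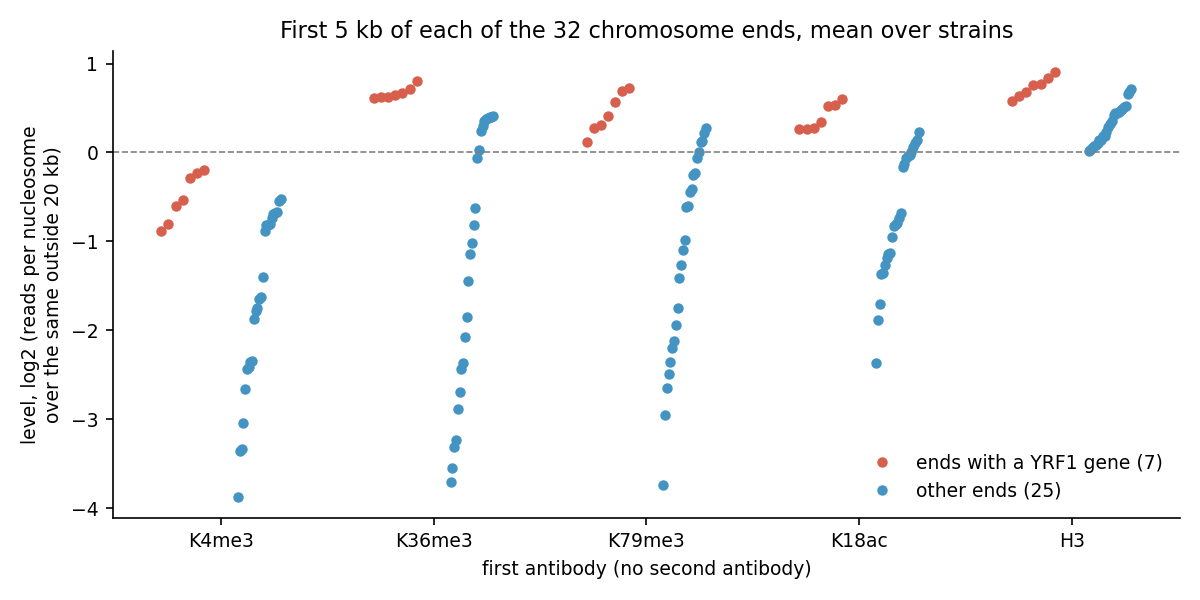
Level of each first antibody with Input in the outermost 5 kb of each of the 32 chromosome ends, each point the mean of 1 end over the strains that carry the mark. The 7 ends with an annotated YRF1 gene lie left of the other 25 ends in each column, and for K36me3 they run from 0.61 to 0.80, against -3.71 to 0.41 at the other ends.

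Over all nucleosomes, the kinds of end differed most in the first step. Pooled over the 7 YRF1 ends, the first 5 kb had mean levels of 0.67 ± 0.46 for K36me3, 0.46 ± 0.20 for K79me3, 0.40 ± 0.12 for K18ac and -0.49 ± 0.38 for K4me3 (SD over strains). The other 25 ends, pooled over both ranges, had -0.62 ± 0.37, -0.75 ± 0.14, -0.57 ± 0.25 and -1.40 ± 0.34 for the same marks. Genic nucleosomes made up 171 of 174 at YRF1 ends but 339 of 669 at the others. Genic nucleosomes alone had 0.47 ± 0.42, 0.34 ± 0.12, 0.40 ± 0.14 and -0.54 ± 0.40 at YRF1 ends. At the other ends they had -0.16 ± 0.43, -0.36 ± 0.19, -0.22 ± 0.23 and -1.07 ± 0.35, a smaller gap for each mark. Over all nucleosomes of the next step, K36me3 was -1.46 at YRF1 ends and -1.64 at the other ends, and K79me3 was -0.99 and -1.27. From 10 to 15 kb the order was the other way round for K36me3, at -1.87 in YRF1 ends and -0.94 in the others. For genic nucleosomes alone it was -1.58 and -0.56 there. Copies of Y' elements are nearly identical, and how reads that match several copies were assigned is not given in the sources used here, so values of single YRF1 genes and ends are uncertain.

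The silent mating-type locus HML lies on the left arm of chromosome III, and 7 nucleosomes with counts fall on its genes (positions 12358 to 13481 of sacCer3). H3 had a mean level of 0.12 ± 0.66 there (SD, n = 4), with 12 to 53 reads per library. K36me3 had 0 to 18 reads and K79me3 0 to 25 reads in the strains that carry them, K4me3 20 to 79 and K18ac 43 to 76. The mean level was -1.19 ± 0.27 for K4me3 (SD, n = 6) and -1.35 ± 0.13 for K18ac (SD, n = 6). HML shares sequence with MAT and HMR, so its reads may include those of the other loci.

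The 5 kb on either side of the HML genes differed sharply. On the side of the telomere, 28 nucleosomes had mean levels of -1.63 for K4me3, -2.32 for K36me3, -2.19 for K79me3 and -1.11 for K18ac, with H3 at 0.65. On the side of the centromere, 26 nucleosomes had 0.16 for K4me3, 0.06 for K36me3, -0.64 for K79me3 and -0.73 for K18ac, with H3 at 0.12. Both methyl marks of lysine 4 and 36 were thus at the level of the rest of the genome within 5 kb of HML on its inner side. CHA1, the serine and threonine deaminase gene induced by these amino acids, lies in that inner stretch and had 1.13 for K4me3 and 0.50 for K36me3 on the gene scale used below.

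Genes were then taken one by one. Of 245 protein-coding genes whose midpoint lies within 20 kb of an end, 238 held a nucleosome with counts and 205 had at least 30 reads of H3 summed over the 4 first-set strains. The gene value is log2(CPM + 1) of a mark in WT H3 minus log2(CPM + 1) of that H3 sum, and it understates the change of weakly covered genes. A gene was counted as lower or higher when it passed 2-fold, with no test, since each value rests on 1 library. The lists below were chosen with earlier results of these data known.

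Of the 205 subtelomeric genes, 126 were lower for K4me3 (61.5%, against 14.6% of all 5277 genes), 104 for K36me3 (50.7%, against 21.6%), 90 for K79me3 (43.9%, against 11.5%) and 48 for K18ac (23.4%, against 4.34%). For K4me3, 4 were higher, against 19.2% of all genes. None was higher for K18ac, K36me3 or K79me3, where 8.17%, 1.02% and 0.152% of all genes were. The median gene value was -1.42 for K4me3, -1.09 for K36me3, -0.76 for K79me3 and -0.56 for K18ac, against medians over all genes of 0.28, 0.00, 0.04 and 0.09.

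By distance, 33 of the 46 genes in the first 5 kb were lower for K4me3 and 14 for K36me3. In the second step it was 38 and 37 of 53, in the third 32 and 30 of 53, and in the fourth 23 and 23 of 53. The genes of the first step thus differed between the 2 marks more than those of the later steps. For K79me3 the counts were 12, 34, 24 and 20, and for K18ac 11, 22, 11 and 4.

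The PAU genes, which encode seripauperin mannoproteins repressed during aerobic growth, were the most uniformly low family. All 15 measured members were lower for K4me3, K36me3 and K79me3, and 14 of 15 for K18ac. Their median value was -3.96 for K36me3, -3.27 for K79me3 and -1.64 for K18ac. For K4me3, 14 of the 15 had at most 3 reads in WT H3 and 5 had none, and the median was -3.43 with these 5 set at the bound that 3 reads allow. PAU19 had no read for K4me3, K36me3 or K79me3 in WT H3, which puts it at least 12.4-fold, 40.9-fold and 23.7-fold below H3. Members of the family are nearly identical, so reads may have been split between them.

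YFR057W, an open reading frame 0.27 kb from the right end of chromosome VI (269061 to 269516), was the lowest of the 205 for both K4me3 and K79me3. Its K4me3 ran from 0 to 8.90 CPM over 6 strains with a median of 1.32, and its K79me3 from 0 to 12.6 CPM over 7 strains with a median of 0. Its H3 was 73.8 CPM in H3K4R, 14.7 in H3K18R, 86.2 in H3K36R and 42.7 in WT H3. Reads of both marks were 0 in WT H3, so it lay at least 15.6-fold below H3 for K4me3 and at least 29.9-fold below for K79me3.

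The thiamine pyrimidine synthesis genes THI5, THI11, THI12 and THI13 separated the marks. All 4 were lower for K4me3, K36me3 and K79me3, with medians of -3.00, -4.35 and -3.39, and none was lower for K18ac, with a median of 0.18. THI13 (chromosome IV, 16204 to 17226) had 0.80 to 15.7 CPM of K36me3 over 5 strains with a median of 4.45, and 65.5 to 245 CPM of K18ac over 6 strains with a median of 141. Its H3 was 159 CPM in H3K4R, 87.9 in H3K18R, 86.2 in H3K36R and 69.4 in WT H3. K18ac of THI13 thus covered the range of H3, and K36me3 lay far below it. Its K79me3 was 174 CPM in eaf3 and 71.3 in set2, against 0 in bar1 and 6.07 to 11.1 in the first-set strains. This contrast was singled out after its values were seen. The K79me3 libraries held 108930 reads in eaf3 and 10044 in bar1, and those of eaf3 and set2 had little or no excess of reads on genes. Whether the contrast reflects the mark was not tested. The 4 genes are near copies of each other.

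The vitamin B6 genes next to some THI copies had the same contrast in part. SNZ2 and SNZ3 had K36me3 values of -3.53 and -3.67 and K79me3 values of -2.22 and -2.06, but K18ac values of -0.09 and 0.35. The isomaltase genes IMA3 and IMA4 were lower for K4me3, K36me3 and K79me3, at -2.99 and -3.58, -3.24 and -3.32, and -2.64 and -2.72. Their K18ac values were -0.67 and -0.54, which did not pass 2-fold.

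In WT H3, other families were low for K4me3 but not for K36me3 and K79me3. All 8 YRF1 genes were lower for K4me3 (median -1.57), and none was lower for K36me3 (median 0.25), K79me3 (-0.13) or K18ac (-0.46). WT H3 had the lowest K4me3 level of the 6 strains in the first 5 kb of the YRF1 ends. In bar1, YRF1-3, YRF1-7, YRF1-8 and YRF1-6 had K4me3 values of -0.72, -1.22, -0.65 and -1.01. Their K4me3 means over strains were -0.98, -1.32, -0.98 and -1.25, and their K36me3 values in bar1 were -0.39, -0.43, -0.40 and -0.54. YRF1-3 had 243 to 483 CPM of K4me3 over 6 strains with a median of 392. For K36me3 it had 497 to 908 CPM over 5 strains with a median of 855, and for H3 809 CPM in H3K4R, 630 in H3K18R, 776 in H3K36R and 609 in WT H3. VTH1 and VTH2, vacuolar sorting receptor homologues, were lower for K4me3 (-2.24 and -1.51) and had K36me3 values of -0.07 and 0.24.

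FLO10, which encodes a lectin-like cell wall protein, was the same case. Its value in WT H3 was -4.48 for K4me3 and -0.47 for K36me3. K4me3 of FLO10 was 34.2 CPM in H3K18R, 76.0 in H3K36R, 179 in eaf3, 184 in set2, 14.5 in WT H3 and 78.6 in bar1, so both second-set deletions stood above the other strains and WT H3 was the lowest of all. Of 5 putative aryl-alcohol dehydrogenase (AAD) genes, 4 were lower for K4me3, 1 for K36me3 and 2 for K79me3. AAD10 had -2.69 for K4me3, 0.00 for K36me3 and -0.46 for K79me3. AAD3 had -2.65 and 0.01 for K4me3 and K36me3 but -1.33 for K79me3, and AAD14 differed from both, with 0.10 for K4me3 and -0.76 for K36me3.

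The COS genes, which encode membrane proteins that act in sorting to the vacuole, showed the opposite order. Of 11 measured members, 10 were lower for K36me3 (median -1.53), 3 for K79me3 (median -0.48) and 2 each for K4me3 (median -0.46) and K18ac (median -0.79). COS12 and COS4 were the 2 members low for K4me3, at -4.00 and -2.84. The remaining 9 lay between -0.67 and 0.43.

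Genes of sugar use were mixed. Of 6 maltose genes, 5 were lower for K4me3, 4 for K36me3, 3 for K79me3 and 2 for K18ac. The maltase genes MAL12 and MAL32 had K36me3 values of -2.78 and -2.60, whereas the maltose permease genes MAL11 and MAL31 had -0.12 and 0.13. Of 4 hexose transporter genes, 3 were lower for K4me3 and for K36me3, and HXT17 was the exception for both (-0.61 and -0.05). The phosphate genes PHO11, PHO12 and PHO89 had K4me3 values of -0.88, -0.91 and -3.29, and all 3 were lower for K79me3.

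**Figure D4:**
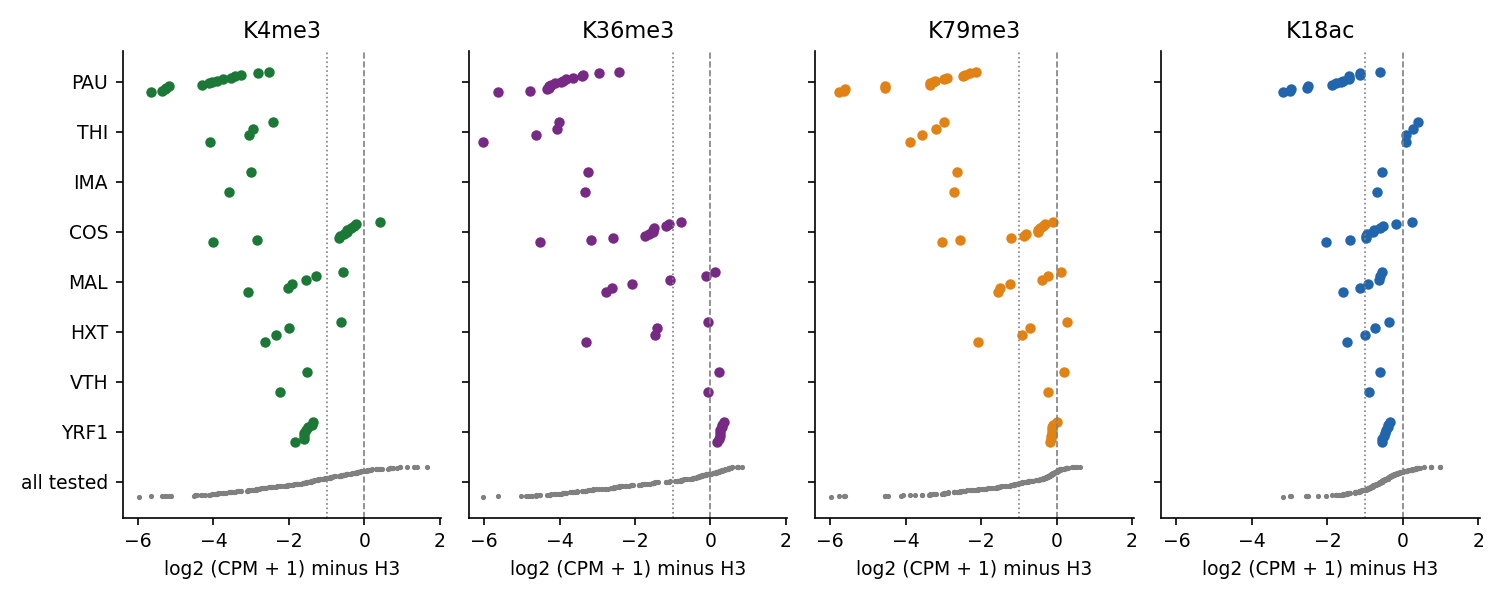
Gene values in WT H3, as log2(CPM + 1) of the mark minus the same of H3 summed over 4 strains, for members of 8 subtelomeric families and, in grey, for all 205 measured subtelomeric genes. Each point is 1 gene, spread vertically by rank, the dashed line is 0 and the dotted line is 2-fold lower. PAU genes lie left of the dotted line for K4me3, K36me3 and K79me3, THI genes are near 0 for K18ac alone, and YRF1 genes are near 0 for K36me3 and K79me3.

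Of the other genes on the list, 11 were measured, and 7 of them were lower for K4me3, 6 for K36me3, 7 for K79me3 and 5 for K18ac. GEX1, a glutathione exchanger gene, was low throughout, at -3.67 for K4me3, -4.16 for K36me3, -4.08 for K79me3 and -2.23 for K18ac. Formate dehydrogenase (FDH1) had -3.07 for K4me3, and GIT1, which encodes a permease for glycerophosphoinositol, had -3.44. DLD3, a cytosolic transhydrogenase gene, was not low for K4me3, with 0.87.

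CHA1 was the only gene of this list to pass 2-fold upwards, with 281 CPM of K4me3 in WT H3. Its K4me3 was 377 CPM in H3K18R, 274 in H3K36R, 94.3 in eaf3, 111 in set2 and 104 in bar1, so the first set lay above the second in every strain. Its K18ac went the same way, with 17.6 CPM in eaf3, 25.7 in set2 and 34.2 in bar1, against 71.2 in WT H3. The set and the strain background cannot be told apart here.

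Some subtelomeric genes had marks at or above the level of typical genes, among them all 8 YRF1 genes for K36me3 (0.18 to 0.36). Those with the most methylation lay between 13.6 and 19.3 kb from an end. RET2, a coatomer subunit gene on chromosome VI (250163 to 251803, 18.6 kb from the end), was the highest of the 205 for K4me3 (1.66), K36me3 (0.83) and K79me3 (0.62). Its K4me3 ran from 188 to 381 CPM over 6 strains with a median of 276, above its H3 of 114 CPM in H3K4R, 73.3 in H3K18R, 183 in H3K36R and 101 in WT H3. ERG13, which makes HMG-CoA for sterol synthesis, had 1.32 for K4me3 at 19.3 kb. RMD6 had 1.39 at 13.6 kb.

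PKC1, the protein kinase C gene of the cell wall integrity pathway, had a K36me3 value of 0.74 and a K79me3 value of 0.52 at 15.5 kb from an end, and RPD3, a histone deacetylase gene, had 0.54 for K79me3 at 18.2 kb. For K18ac the highest were ARR1, a regulator of arsenic resistance (0.99), MIX23 (0.98) and VEL1 (0.76), between 8.88 and 10.9 kb from an end. The lowest for K18ac were PAU8 (3 reads), PAU21 (6 reads) and PAU6 (5 reads). For K36me3 THI13 (2 reads, value -6.02 with a 95% counting interval from -7.83 to -4.21) and SOR2, a sorbitol dehydrogenase paralogue (-5.01), stood with PAU19 at the bottom.

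Pairs of marks were read from libraries in which material bound by one antibody was bound again by another. The subtelomeric level of a pair varied with both antibodies, and it could lie outside the levels of both with Input. It was lowest when K4me3 was joined with another methyl mark: -1.48 ± 0.26 for K4me3 then K79me3 (SD over 6 strains), -1.41 ± 0.16 for K4me3 then K36me3 (4 strains), -1.34 ± 0.28 for K79me3 then K4me3 (6 strains) and -1.31 ± 0.15 for K36me3 then K4me3 (4 strains). These pairs were lower than K4me3 with Input in the same 4 or 6 strains when K4me3 came first, by a mean of -0.35 ± 0.08 with K79me3 and -0.31 ± 0.03 with K36me3, and each strain had that direction.

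Pairs with K18ac were nearer to 0. K18ac then K4me3 had -0.96 ± 0.29 (5 strains), K4me3 then K18ac -0.76 ± 0.47 (5 strains) and K36me3 then K18ac -0.40 ± 0.14 (4 strains). K79me3 then K18ac had -0.72 ± 0.90 over 6 strains, and -0.43 ± 0.29 over the 4 libraries of at least 10000 reads. The first of these values includes a bar1 library of 150 reads with a level of -2.47. K36me3 and K79me3 together gave -0.93 ± 0.31 with K36me3 first and -0.92 ± 0.20 with K79me3 first (5 strains each). With K36me3 first this was close to K36me3 with Input in the same strains, a change of -0.07 ± 0.15, down in 3 of 5. With K79me3 first it was below K79me3 with Input by a mean of -0.24 ± 0.29, down in 5 of 5.

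Over all nucleosomes, second steps of K4me3, K18ac and H3 moved the level in the direction of their own mark. For K18ac after K79me3 this held in 5 of 6 strains, and the mean of -0.02 ± 0.91 includes a change of -1.87 in bar1, where the 150-read library held 1 subtelomeric read. A second K4me3 step changed it by -0.61 ± 0.07 after K18ac, -0.44 ± 0.08 after K36me3 and -0.66 ± 0.23 after K79me3, downwards in each of 5, 4 and 6 strains. A second K18ac step changed it by 0.37 ± 0.19 after K4me3 and 0.49 ± 0.11 after K36me3, upwards in each of 5 and 4 strains. H3 as second antibody raised it by 0.54 ± 0.07 after K4me3, 0.79 ± 0.02 after K18ac, 0.99 ± 0.02 after K36me3 and 0.78 ± 0.04 after K79me3, in each of 3 or 4 strains. A repeat of the same mark changed it by -0.08 ± 0.24 for K4me3, -0.19 ± 0.23 for K79me3 and 0.02 ± 0.06 for K36me3, but by 0.37 ± 0.03 for K18ac, upwards in all 6 strains. These changes had no test. From bulk H3, a second antibody gave -0.92 ± 0.24 for K4me3 (3 strains), -0.53 ± 0.08 for K36me3 (3 strains) and -0.69 ± 0.09 for K79me3 (4 strains), against 0.56 ± 0.13 for H3 then H3 (4 strains). On intergenic nucleosomes alone the rise with K18ac was absent. A second K18ac step changed the intergenic level by -0.05 ± 0.28 after K4me3, -0.18 ± 0.23 after K36me3 and -0.54 ± 0.79 after K79me3. It went down in 4 of 5, 3 of 4 and 5 of 6 strains, which was not tested.

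**Figure D5:**
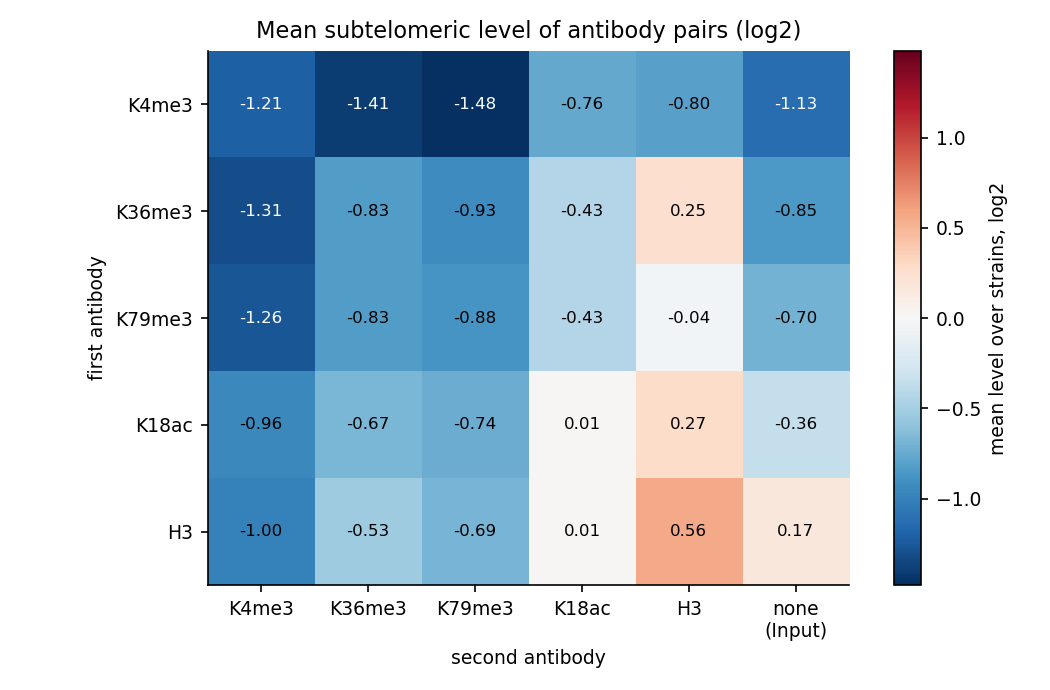
Mean subtelomeric level (log2) for each first antibody (rows) and second antibody (columns), over the strains that carry both marks, with Input in the last column. Means use libraries of at least 10000 reads, except H3 then K18ac, where all 3 libraries held fewer. The darkest cells are K4me3 then K79me3 (-1.48) and K4me3 then K36me3 (-1.41).

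Pairs also had lower intergenic than genic levels, by amounts that varied. K36me3 then K18ac had a genic level of 0.11 and an intergenic level of -0.95 (4 strains), and K4me3 then K18ac had -0.36 and -1.36 (5 strains). K4me3 then K36me3 had -0.99 and -1.53, and K4me3 then K79me3 had -1.12 and -1.55. They lay closer together in H3 then K36me3, at -0.12 and -0.24, and in H3 then K79me3, at -0.34 and -0.45. By distance, K36me3 or K79me3 followed by K18ac was above 0 in the first 5 kb and low in the second: K36me3 then K18ac had 0.66 and then -1.32, and K79me3 then K18ac had 0.41 and then -1.03. In the other order, K18ac then K36me3 had 0.07 and then -1.35, and K18ac then K79me3 had -0.25 and then -1.25, below 0 in all 6 strains of the first step. K4me3 then K36me3 was low in both, at -1.04 and -1.90. These step values use libraries of at least 10000 reads.

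Strains were compared with the wild type of their own set over all combinations of antibodies that both carry, without a test, since each combination is 1 library. The SDs of these comparisons are over combinations within 1 pair of strains. Combinations share strains and antibodies, so neither these SDs nor the counts up or down measure the spread between strains. As a measure of how far 2 strains can lie apart without a targeted change in a histone or histone enzyme, bar1 was compared with WT H3: over 15 combinations of at least 10000 reads in both, its level differed by 0.26 ± 0.33 (SD), and K18ac combinations differed by 0.55 ± 0.14, upwards in all 6. That comparison also spans the 2 library sets.

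In H3K36R, subtelomeres were lower than in WT H3, by a mean of -0.18 ± 0.13 over 20 combinations, 18 of them down. The mean was -0.20 ± 0.12 for combinations with K4me3, -0.20 ± 0.09 with K18ac and -0.17 ± 0.09 with K79me3, down in 8 of 8 each. With Input, the change of K4me3 was -0.11 in the first 5 kb, -0.52 in the second step, -0.32 in the third and -0.12 in the fourth, and K18ac had -0.12, -0.40, -0.19 and -0.10. The second step thus moved most for both. H3 with Input moved the other way, by 0.22, 0.17, 0.04 and 0.02. Over combinations of at least 10000 reads the mean change was -0.17 ± 0.13 (19 combinations), against 0.26 ± 0.33 for bar1 against WT H3 (15 combinations). Over all 20 combinations bar1 differed from WT H3 by 0.05 ± 0.61, so which distance is larger depends on the libraries taken.

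In H3K18R, combinations with K4me3 were higher by 0.19 ± 0.08, up in 8 of 8, with a mean of 0.08 ± 0.13 over all 20 combinations. H3 with Input was lower there by -0.22 in the first 5 kb. In H3K4R the mean change was 0.00 ± 0.12 over 20 combinations, 9 up and 11 down, with K18ac combinations at 0.10 ± 0.11, up in 7 of 8, and K79me3 combinations at -0.09 ± 0.06, down in 7 of 8.

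In eaf3 the mean change against bar1 was 0.02 ± 0.62 over 20 combinations and -0.19 ± 0.17 over the 15 in which both libraries held at least 10000 reads. Combinations with K18ac had -0.30 ± 0.11, down in 6 of 6. In set2 the mean was 0.20 ± 0.74 over 12 combinations and -0.08 ± 0.16 over the 9 deep ones, with K18ac at -0.18 ± 0.13, down in 4 of 5. Levels of K18ac with Input in both deletion strains lay between those of bar1 and WT H3, so the direction depends on which of these wild types is the comparator. The strain labelled bar1 had intact BAR1 reads, which bears on every comparison made with it.

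Single genes were compared in the same way with Input libraries. For K4me3 in H3K36R against WT H3, 55 of 205 subtelomeric genes were lower by 2-fold (26.8%, against 3.52% of all genes) and 8 were higher (3.90%, against 1.29%). In set2 against bar1, 30 were higher (14.6%, against 3.41%) and 7 lower (3.41%, against 1.88%), and in eaf3 against bar1, 24 were higher (11.7%, against 3.26%) and 12 lower (5.85%, against 1.08%). Most of these genes had few reads: the median was 12.5 reads in bar1 for the 30 genes higher in set2, and 86 reads in bar1 over all genes. The counting interval excluded 0 for 20 of the 30, 17 of the 24, and 37 of the 55.

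The comparison of bar1 with WT H3 gave counts of the same size for K4me3, with 35 genes higher (17.1%, against 2.77%) and 5 lower (2.44%, against 1.53%). Subtelomeric genes thus passed 2-fold more often than all genes also between these wild types. Of the 30 genes higher in set2 and the 8 higher in H3K36R, which do not share a comparator, 5 were the same, 16.7% of the first list and 62.5% of the second. Another 7 of the 30 (23.3%) were among the 55 lower in H3K36R, where they made up 12.7%. Of all 205 subtelomeric genes, 3.90% were higher and 26.8% lower in H3K36R, and 14.6% were higher in set2.

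For K18ac, lower genes outnumbered higher ones in each mutant. In H3K36R, 23 were lower (11.2%, against 1.14%) and 1 higher (0.488%, against 0.0948%). In set2, 14 were lower (6.83%, against 1.33%) and 2 higher (0.976%, against 0.0758%), and in eaf3, 11 were lower (5.37%, against 0.739%) and 1 higher (0.488%, against 0.474%). In bar1 against WT H3 it was 10 higher (4.88%, against 0.379%) and 3 lower (1.46%, against 1.23%).

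The largest increases of K4me3 in H3K36R were FLO10, with 82 reads in H3K36R and 11 in WT H3 (log2 change 2.31, 95% counting interval 1.42 to 3.20), and HXK1, the hexokinase of growth on poor carbon sources, with 44 and 6 reads (2.23, 1.04 to 3.42). YPL278C had 4 reads in H3K36R and none in WT H3. In eaf3 the clearest was IMA4, with 142 reads in eaf3 and 12 in bar1 (1.99, 1.15 to 2.82), and in set2 YFL065C, with 22 and 3 reads (2.14, 0.52 to 3.76). PAU22 had 11 reads in set2, 17 in eaf3 and none in bar1. Its intervals included 0, from -0.28 to 7.89 in set2 and from -0.59 to 7.53 in eaf3. With bar1 set at the bound of 3 reads and the other count taken as exact, the increases were 2.54-fold and 1.97-fold. PAU15, with 11 reads in set2 and 1 in bar1, and YFR057W, with 15 in eaf3 and 1 in bar1, also had intervals that included 0.

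For K18ac, AAD4 had the largest increase in H3K36R, with 191 reads in H3K36R and 63 in WT H3 (1.35, 0.94 to 1.76), followed by TDA8 (0.83, with an interval that included 0) and the alcohol dehydrogenase gene ADH4 (0.77). Over all strains, K18ac of AAD4 ran from 60.6 to 156 CPM with a median of 133, and WT H3 was the lowest. In eaf3, YHR214C-B had 803 reads in eaf3 and 565 in bar1 (0.85, 0.70 to 1.01). The other genes with the largest K18ac increases, PAU1 and PAU8 in eaf3 and PAU1, PAU19 and YFR057W in set2, had between 6 and 15 reads in the deletion strain and intervals that included 0.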

How the data were processed

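The authors deposited raw counts, whole numbers of reads for each atlas nucleosome in each library. The aligner was Bowtie2 and the genome build sacCer3, per the submitters' processing notes. The Bowtie2 version, the assignment of reads to nucleosomes and to repeated sequence, duplicate removal and barcode splitting are not given in the sources used here. Kept duplicates or shared reads would make counting errors too small and blur family members.

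The members, gene lists and named genes were chosen with earlier results of these data known. Distance was measured from nucleosome centres, and 62 atlas members had no counts. Levels are log2 ratios of reads per nucleosome with 0.5 reads added. Gene positions came from a RefSeq R64 table. Genes named are those of listed families (at most 4 examples each, by H3 reads), the 3 highest and 3 lowest per mark in WT H3, the 3 largest K4me3 and K18ac increases in H3K36R, set2 and eaf3, and the extreme ends. Strains were grouped by their labels. Exact permutation and sign-flip tests over strains, with Benjamini-Hochberg adjustment at 0.05, ran in Python 3.11.15 with NumPy 2.4.6 and pandas 2.3.3, and were tested on simulated data. Intervals are 95% and cover counting error only. Alternatives changed distances, nucleosomes, denominators, strains, libraries, read minimums and pseudocounts.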

Additional observations from a re-analysis of the deposited data

How the results depend on the processing

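Of 1051 recomputed values, 879 kept their direction and their side of the threshold, or moved by less than the spread. All 4 marks remained below H3 in direction under every alternative run. With the same strains as pairs (sign-flip), no pair passed, and the differences were -1.496 for K4me3 minus H3, -0.73 for K18ac minus H3, -0.87 for K36me3 minus H3, -0.99 for K79me3 minus H3, 0.77 for K18ac minus K4me3, 0.45 for K79me3 minus K4me3, -0.58 for K36me3 minus K18ac and -0.34 for K79me3 minus K18ac. Relative to H3 of the same strain, the 4 differences from H3 were identical, and those between marks were 0.77, 0.51, -0.14 and -0.26 in the same order, with K79me3 minus K36me3 at -0.12, the other way round. In the first set alone K18ac minus K4me3 was 0.82, K36me3 minus K18ac -0.23 and K79me3 minus K36me3 -0.081, reversed. In the second set alone K18ac minus K4me3 was 0.72, K79me3 minus K4me3 0.37, K36me3 minus K18ac -0.82, K79me3 minus K18ac -0.34 and K36me3 minus K4me3 -0.10, reversed. With strains that lack the mark kept, K36me3 minus K4me3 was -0.025 and K79me3 minus K4me3 0.33. Leaving out 1 strain at a time gave 0.19 to 0.38 for K36me3 minus K4me3.

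Without the first 5 kb, an alternative chosen after seeing the data, K36me3 minus K4me3 was -0.019, K79me3 minus K4me3 0.29 (no longer passing) and K79me3 minus K36me3 0.31 (now passing). The genic minus intergenic difference was then 0.35 for K4me3, 0.29 for K18ac, 0.070 for K79me3 and -0.0092 for K36me3. In the first set alone it was 0.42, 0.46 and 0.20 for K4me3, K18ac and K79me3, and in the second set alone 0.43, 0.44 and 0.36. With 1 strain left out it ran from 0.41 to 0.45 for K4me3, 0.43 to 0.47 for K18ac and 0.24 to 0.29 for K79me3, and none passed, since fewer strains raise the smallest p.

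The number of step tests passed was 9 to 17 with 1 strain left out and 0 in the first set alone. Only comparisons that had not passed changed direction by step. K36me3 minus K18ac at 0 to 5 kb was -0.018 without repeated families, -0.049 without YRF1 ends (chosen after seeing the data) and -0.034 to 0.20 with 1 strain left out, and K79me3 minus K18ac there was 0.062 in the first set. K36me3 minus K4me3 at 10 to 15 kb was -0.019 without repeated families, -0.35 as the median over ends and -0.015 to 0.16 with 1 strain left out, and at 15 to 20 kb it was -0.14 as the median over ends.

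The second-step change moved most where K36me3 was involved. Without repeated families, as the median over ends, without YRF1 ends and without the first 5 kb, it was -0.38, -0.41, -0.36 and -0.48 for K4me3 then K36me3, -0.52, -0.49, -0.49 and -0.72 for K18ac then K36me3, and 0.37, 0.34, 0.36 and 0.16 for K36me3 then K18ac. Without the first 5 kb it was 0.13 for K4me3 then K18ac and -0.57 for K18ac then K79me3. Relative to H3, the mean change in H3K18R was 0.23. With at least 100 summed H3 reads, fewer genes were tested, and 76, 23, 48 and 40 were lower for K4me3, K18ac, K36me3 and K79me3. The cause of the other shifts was not tested.

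The end of the reference chromosome was not used here as a boundary, since no chromosome lengths were given. Depth limits single genes, many of which had under 20 reads of K4me3, and the K79me3 libraries of bar1.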
